A study of Rattus rattus with 10 samples.

Results

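Genes whose transcripts mark macrophages and other white blood cells were followed in rat testis during the first day after a single dose of either of a pair of antispermatogenic drugs. The set held 38 gene symbols of leukocyte surface proteins, Fc receptors and their signalling chains, macrophage proteins, the phagocyte oxidase, and the leukocyte cytoskeleton. Each gene was read from its brightest probe set, the one with the highest mean over the arrays. A named probe set existed for 35 of the 38 symbols, among 14217 named genes in all. Msr1, a scavenger receptor, and Spi1, a myeloid transcription factor, had none, and Fcgr2a, an IgG receptor, shared its probe sets with a second symbol and was left unnamed.

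The RNA came from testes of adult Long-Evans males, 60 days old, that received 1 intraperitoneal injection of gamendazole at 6 mg/kg, of lonidamine at 25 mg/kg, or of the buffered DMSO vehicle alone. Both drugs are indazole carboxylic acids that loosen spermatids from Sertoli cells, the supporting cells of the seminiferous epithelium. Each drug was measured at 4, 12 and 24 h, and vehicle at 0, 4, 12 and 24 h, with 1 array for each treatment and hour and thus 10 arrays. The number of animals behind an array and any pooling of RNA are not given in the labels, and no array was replicated.

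Macrophages are the most abundant leukocytes of the normal rat testis, where they lie in the interstitium beside the Leydig cells and outside the blood-testis barrier. In this species resident testicular macrophages carry the scavenger receptor Cd163. The lysosomal protein Cd68 is carried by monocytes that arrive from blood and is not confined to them. Monocytes are drawn from blood by chemokines such as Ccl2, and engulf material through Fc and scavenger receptors coupled to signalling chains such as Fcer1g and Tyrobp. Lysozyme, cathepsins and the NADPH oxidase act on what is engulfed.

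Values are signal intensity on the linear scale, which the authors' software scaled to 1 trimmed mean, and array medians lay between 110.2 and 124.5. Low values were raised to a floor of 37.1, the pooled 25th percentile, before log2 was taken. A probe set was tested where it reached 116.2, the pooled median, on 2 or more arrays. This held for 17549 of 31042 probe sets and for 30 of the 35 genes. The integrin chains Itgam and Itgal, the oxidase subunits Ncf1 and Cybb, and the exchange factor Vav1 were not tested. Of the 30, 9 reached the median on fewer than 2 vehicle arrays and so passed only because of signal on treated arrays. Each treated array was set against the 4 vehicle arrays with limma, and p-values were adjusted over all tested probe sets by Benjamini-Hochberg with a threshold of 0.05. All residual spread in this fit came from vehicle arrays, so a treated array was assumed to vary as they do. All 6 comparisons share the same vehicle arrays. The instrument records placed the hybridisations in 3 runs. Both drugs at 24 h lay in the run of the 24 h vehicle array, both drugs at 12 h in that of the 12 h vehicle array, and lonidamine 4 h in that of the 4 h vehicle array. Gamendazole 4 h lay in another run than its vehicle array.

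At 24 h several transcripts of macrophages and leukocytes were higher with both drugs, and none of the set was called at 4 h. Lyz2 (lysozyme), Fcgr2b (the inhibitory IgG receptor), Cd53 (a leukocyte tetraspanin), Cd163 and Lcp1 (the actin-bundling protein L-plastin) rose with both drugs, Coro1a (the actin-binding protein coronin) with gamendazole and Mrc1 (the mannose receptor) with lonidamine. On the gamendazole 24 h array 6 genes were higher by limma's adjusted p, where 5.69% of all tested probe sets were called higher. On the lonidamine 24 h array 6 were also higher, against a background of 5.03%. No gene of the set was called lower on either array, against 4.09% of tested probe sets with gamendazole and 1.98% with lonidamine. Of the 21 genes that passed the signal filter on the vehicle arrays, 4 were called with gamendazole and 5 with lonidamine, while Fcgr2b with both drugs and Coro1a with gamendazole had passed it only through treated arrays.

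Before 24 h the counts were smaller. On the gamendazole 12 h array 4 genes were called higher (Lyz2, Fcgr2b, Cd53 and Lcp1), against 4.91% of all tested probe sets. On the lonidamine 12 h array 1 gene was called (Mrc1), against 1.28%. Neither 4 h array had a called gene of the set by limma, where 1.05% of tested probe sets were called higher with gamendazole and 0.0513% with lonidamine; 7 of the 30 genes had an unadjusted p under 0.05 with gamendazole, against 11.9% of tested probe sets, and 0 with lonidamine, against 9.03%.

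Counted without a model, 26 of the 35 genes stood above all 4 vehicle arrays on the gamendazole 24 h array, and 25 on the lonidamine 24 h array. Over all probe sets these shares were 25.2% and 18.7%, and over tested probe sets 30.3% and 25.6%. The 23 genes above every vehicle array on both 24 h arrays made up 65.7% of the set, against 12.4% of all probe sets and 18.5% of the tested ones. Cd37, Aif1 and Csf1 lay below every vehicle array on both, as did 12.8% of all probe sets. At 12 h, 16 genes stood above with gamendazole, where the share over all probe sets was 23.7%, and 12 with lonidamine, where it was 19.3%. At 4 h, 11 stood above with gamendazole, where the share was 16.9%, and 4 with lonidamine, where it was 19.9%. The median log2 difference of the 35 genes from the vehicle mean went from -0.13 at 4 h to 0.11 at 12 h and 0.49 at 24 h with lonidamine, and from 0.12 to 0.23 and 0.73 with gamendazole. The median over all probe sets stayed between -0.03 and 0 on these 6 arrays.

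**Figure D1:**
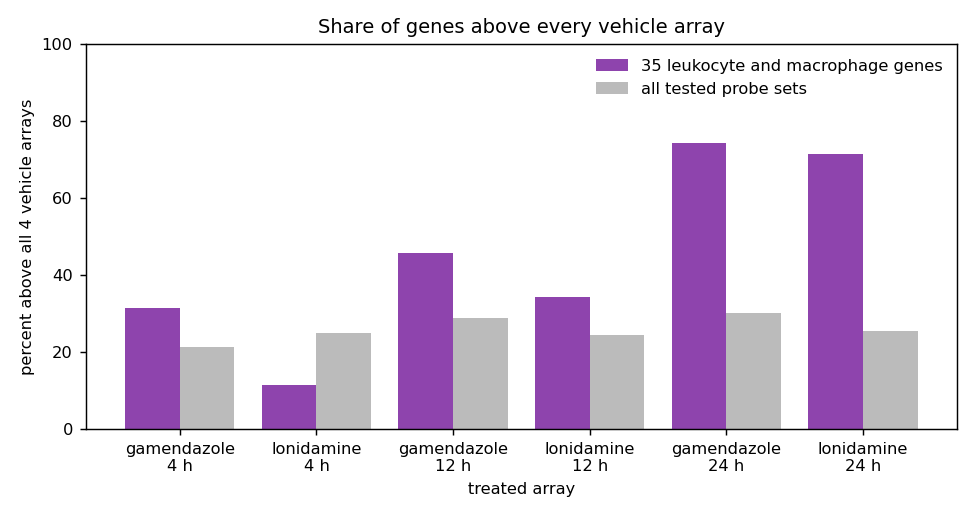
Percent of genes whose signal on a treated array exceeded all 4 vehicle arrays, for the 35 leukocyte and macrophage genes and for all tested probe sets. The 35 genes reach 74.3% on gamendazole 24 h and 71.4% on lonidamine 24 h, against 30.3% and 25.6% of tested probe sets, whereas on lonidamine 4 h they stand at 11.4% against 24.9%.

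**Figure D2:**
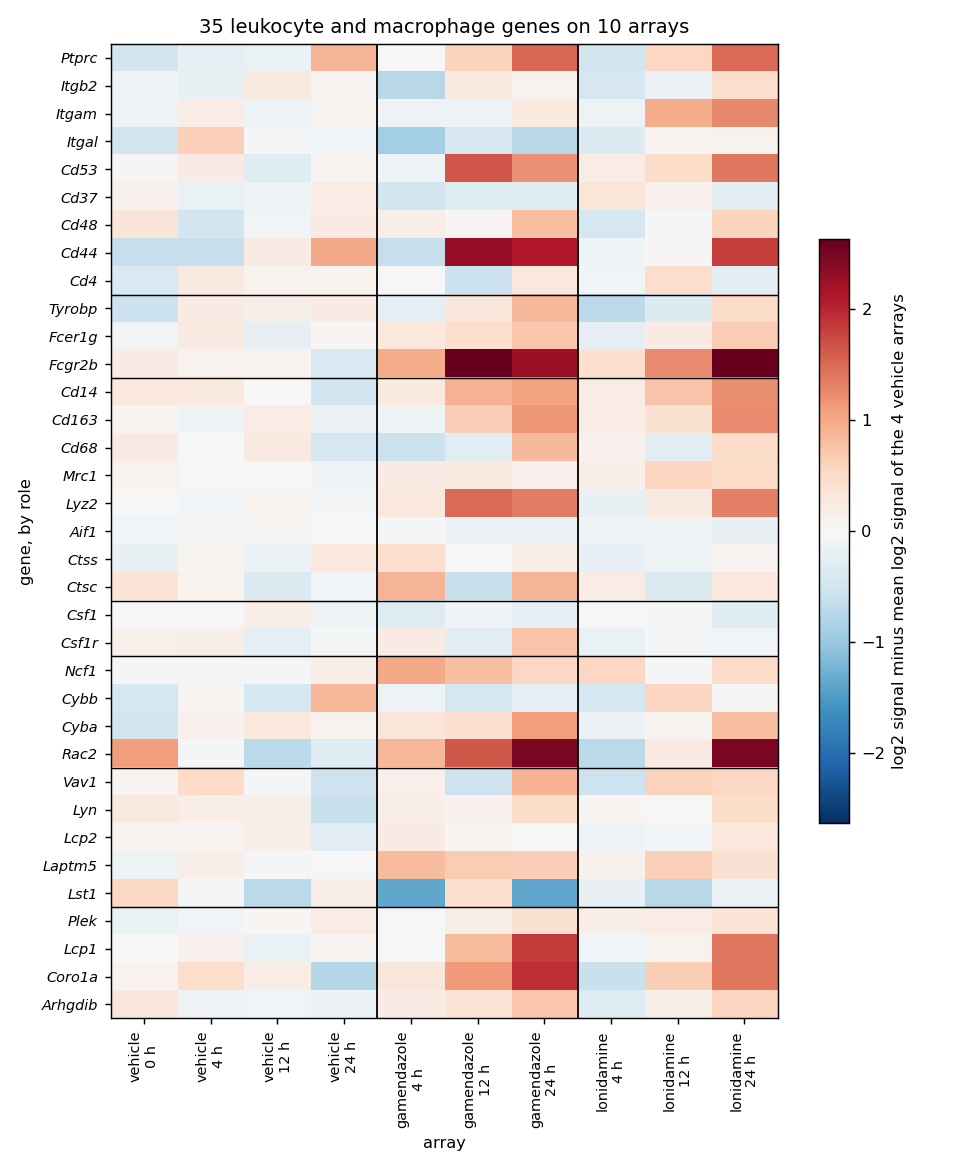
Log2 signal of each of the 35 genes minus its mean over the 4 vehicle arrays, with genes in rows by role (surface proteins, Fc receptors and chains, macrophage proteins, Csf1 axis, oxidase, signalling, cytoskeleton) and arrays in columns. Red is higher and blue lower, and the columns of both 24 h drug arrays hold most of the strong red, led by Fcgr2b, Rac2, Cd44, Lcp1 and Coro1a.

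Among Fc receptors and their chains, Fcgr2b, which inhibits activation when IgG complexes bind, changed most. Its signal was 61.3, 56.9, 57.0 and 40.1 on the vehicle arrays at 0, 4, 12 and 24 h. It was 104.2, 329.0 and 252.6 at 4, 12 and 24 h of gamendazole, and 72.2, 126.3 and 330.4 at the same hours of lonidamine. All 6 treated arrays lay above all 4 vehicle arrays. The log2 difference was 2.63 ± 0.36 (SE, 1 array against 4) at 12 h of gamendazole (limma adjusted p = 0.00639) and 2.25 ± 0.36 at 24 h (limma adjusted p = 0.0108). With lonidamine it was 1.25 ± 0.36 at 12 h (limma adjusted p = 0.201) and 2.64 ± 0.36 at 24 h (limma adjusted p = 0.00675). Fcgr2b stayed under the pooled median on all 4 vehicle arrays, and with no filter on low signals the 24 h values had limma adjusted p of 0.0513 for gamendazole and 0.0542 for lonidamine.

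Fcer1g, the gamma chain through which activating Fc receptors signal, read between 264.6 and 363.7 on the vehicle arrays, 509.3 at 24 h of gamendazole and 492.1 at 24 h of lonidamine. Its log2 differences of 0.73 ± 0.21 and 0.68 ± 0.21 had limma adjusted p of 0.074 and 0.112. Both 24 h arrays were above every vehicle array, while lonidamine 4 h, at 259.3, was below them all. Tyrobp, the adaptor of activating receptors on myeloid cells, lay between 89.3 and 152.7 with vehicle and reached 239.9 and 186.0 at 24 h of gamendazole and lonidamine (limma adjusted p = 0.209 and 0.527). Its 0 h vehicle array stood apart below the other 3.

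Among macrophage proteins, Lyz2, which cleaves bacterial cell walls and is made in quantity by macrophages, rose with gamendazole at 12 h and with both drugs at 24 h. Vehicle signals at 0, 4, 12 and 24 h were 1089.1, 1028.4, 1143.5 and 1053.9. Gamendazole gave 1307.9, 3045.3 and 2758.4 at 4, 12 and 24 h, and lonidamine gave 941.1, 1275.9 and 2716.3. The gene was thus at its highest by 12 h with gamendazole, whereas with lonidamine it was slightly above the vehicle range at 12 h and high at 24 h. Its log2 difference at 12 h was 1.5 ± 0.10 with gamendazole (limma adjusted p = 0.000373) and 0.24 ± 0.10 with lonidamine (limma adjusted p = 0.382). At 24 h it was 1.36 ± 0.10 and 1.33 ± 0.10, a fold of 2.56 and 2.52 (limma adjusted p = 0.000496 and 0.000581). With any 1 vehicle array left out the limma adjusted p at 24 h was at most 0.00519 for either drug.

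Cd163, which takes up haemoglobin-haptoglobin complexes, read 152.6, 132.5, 166.4 and 130.3 on the vehicle arrays in order of hour. With gamendazole it read 133.7, 226.4 and 321.9 at 4, 12 and 24 h, and with lonidamine 165.2, 191.8 and 343.4. The 12 and 24 h arrays of both drugs were above the vehicle range, and the 4 h arrays were within it. At 24 h the log2 difference was 1.15 ± 0.25 with gamendazole (limma adjusted p = 0.0317) and 1.25 ± 0.25 with lonidamine (limma adjusted p = 0.0296). Leaving out any 1 of the 4 vehicle arrays ended both calls, with limma adjusted p from 0.0534 to 0.0707, while the log2 differences stayed between 1.1 and 1.31.

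Mrc1, which binds mannose-rich glycoproteins on macrophages, passed with lonidamine at 12 and 24 h. Vehicle arrays ran from 1401.4 to 1576.8, lonidamine gave 1669.3, 2184.8 and 2109.5, and gamendazole gave 1736.6, 1741.1 and 1613.5. Every treated array was above every vehicle array, and at 12 and 24 h the gamendazole ones were the nearer to it. With lonidamine the log2 difference was 0.56 ± 0.10 at 12 h and 0.51 ± 0.10 at 24 h (limma adjusted p = 0.0432 and 0.0235), and with gamendazole at 24 h it was 0.12 ± 0.10 (limma adjusted p = 0.495). The 12 h call was lost without any 1 vehicle array (limma adjusted p from 0.0548 to 0.145), and the 24 h call without the 4, 12 or 24 h one (up to 0.0733).

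Cd14, the co-receptor for bacterial lipopolysaccharide, was 123.5, 121.1, 100.5 and 71.7 on the vehicle arrays. It was 122.6, 191.2 and 211.3 with gamendazole and 117.0, 171.3 and 239.1 with lonidamine at 4, 12 and 24 h. The 12 and 24 h arrays lay above all vehicle arrays, yet the 24 h differences of 1.05 ± 0.37 and 1.23 ± 0.37 had limma adjusted p of 0.126 and 0.103. Cd68 was between 80.3 and 130.4 with vehicle and 200.9 and 154.5 at 24 h of gamendazole and lonidamine (limma adjusted p = 0.206 and 0.532). At 12 h it was 91.0 and 89.9, inside the vehicle range.

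The other macrophage genes did not pass at 24 h. Aif1, a calcium-binding protein of macrophages, ranged from 7723.3 to 8340.3 on vehicle arrays and was 7232.8 and 7104.8 at 24 h of gamendazole and lonidamine. These log2 differences of -0.17 ± 0.06 and -0.20 ± 0.06 had limma adjusted p of 0.144 and 0.125. Its vehicle signal was far above that of Cd68 (80.3 to 130.4) and Csf1r (157.1 to 209.1). Which cells of the testis gave the Aif1 signal was not tested. The Aif1 probe set is of the type whose probes are shared by several transcripts. A second Aif1 probe set, between 25.5 and 164.5 over the 10 arrays, gave -1.80 and 0.34. The lysosomal proteases differed from each other: Ctss was 0.15 ± 0.20 and 0.07 ± 0.20 from vehicle on the log2 scale at 24 h, and Ctsc was 0.91 ± 0.37 with gamendazole and 0.28 ± 0.37 with lonidamine. None of these 4 differences passed, with limma adjusted p between 0.176 and 0.892. In bulk testis RNA, a change in the number of cells of a type and a change in transcript per cell cannot be told apart, which applies to all values here.

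**Figure D3:**
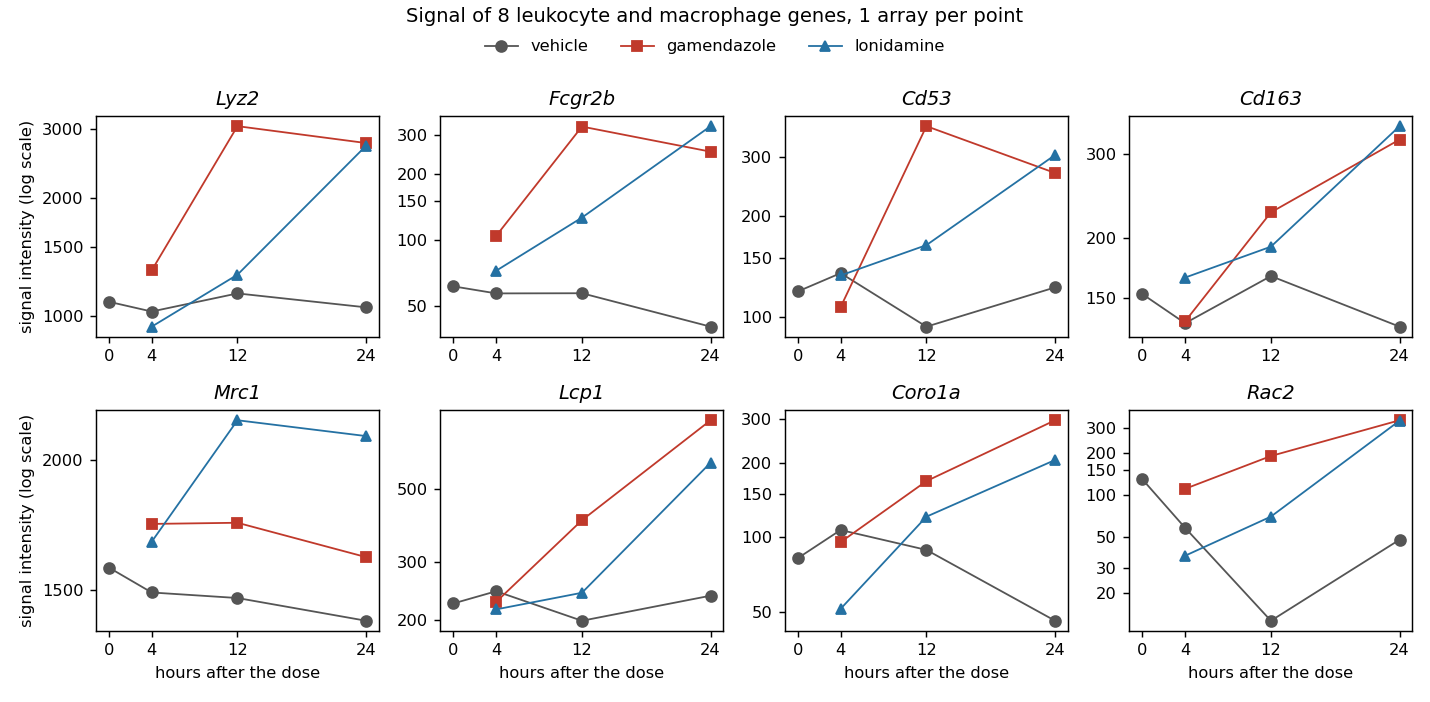
Signal intensity on a log axis against hours after the dose for 8 genes, with 1 array per point, grey circles for vehicle, red squares for gamendazole and blue triangles for lonidamine. Lyz2, Fcgr2b and Cd53 are near their highest by 12 h with gamendazole and only at 24 h with lonidamine, whereas Lcp1, Coro1a and Rac2 are highest at 24 h with both drugs and Mrc1 is highest with lonidamine.

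Among leukocyte surface proteins, Cd53 was the only one called on a single treated array. Its vehicle signals were 119.4, 135.4, 93.8 and 122.8, against 107.3, 371.0 and 269.1 at 4, 12 and 24 h of gamendazole and 133.3, 164.1 and 304.5 of lonidamine. From 12 h on all arrays of both drugs were above the vehicle range. With gamendazole the log2 difference was 1.67 ± 0.29 at 12 h and 1.20 ± 0.29 at 24 h (limma adjusted p = 0.0156 and 0.0422), and with lonidamine it was 1.38 ± 0.29 at 24 h (limma adjusted p = 0.032). Without any 1 vehicle array the 12 h call held, with limma adjusted p up to 0.0435, and both 24 h calls were lost, with limma adjusted p from 0.057 to 0.0791.

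Cd44, a hyaluronan receptor that many other cell types also carry, read 14.3, 14.4, 65.8 and 114.0 on the vehicle arrays, a wide spread. With gamendazole it read 37.2, 278.6 and 245.3, and with lonidamine 52.5, 58.2 and 201.0. Its 24 h values exceeded all vehicle arrays with both drugs, and its 12 h value with gamendazole only, and none of these passed (limma adjusted p = 0.083 at 12 h of gamendazole, 0.0926 and 0.163 at 24 h). Ptprc, the phosphatase known as leukocyte common antigen, read 28.5, 44.5, 46.0 and 96.7 with vehicle and 147.7 and 146.7 at 24 h of gamendazole and lonidamine (limma adjusted p = 0.168 and 0.204). A dimmer Ptprc probe set, which never reached the pooled median, gave log2 differences of 0.88 and -0.23.

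The remaining surface genes did not pass at 24 h. Cd48, an adhesion protein of lymphocytes and monocytes, ran from 249.5 to 440.4 with vehicle and read 603.2 and 522.2 at 24 h of gamendazole and lonidamine (limma adjusted p = 0.149 and 0.318). The integrin beta chain Itgb2 was 231.1 and 296.3 against a vehicle range of 188.8 to 254.0. Its alpha partner Itgam stayed under the pooled median on all 10 arrays, at 48.6 and 98.8 at 24 h, and the other partner, Itgal, read 62.7 with gamendazole, below the vehicle range of 72.0 to 161.5, and 111.6 with lonidamine, within it. The tetraspanin Cd37, most abundant on B cells, was below all vehicle arrays at 24 h, at 123.6 and 127.7 against at least 136.4. Cd4, which rat macrophages carry as well as helper T cells, was 126.2 and 84.1, with vehicle arrays between 77.9 and 121.6.

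Of the 4 genes of the leukocyte cytoskeleton, Lcp1 rose with both drugs and Coro1a with gamendazole at 24 h. Lcp1 read 224.9, 245.0, 199.3 and 237.5 on the vehicle arrays, 227.4, 402.5 and 809.8 with gamendazole, and 215.8, 242.4 and 602.0 with lonidamine. It was in the vehicle range at 4 h, above it at 12 h with gamendazole only, and far above it at 24 h with both. The 24 h differences were 1.84 ± 0.19 and 1.41 ± 0.19 on the log2 scale, 3.58-fold and 2.66-fold (limma adjusted p = 0.00224 and 0.00675), and they passed without any 1 vehicle array (limma adjusted p up to 0.0109 and 0.0235). The 12 h difference with gamendazole, 0.83 ± 0.19, had a limma adjusted p of 0.0447 and did not pass without any 1 of the vehicle arrays (0.0752 to 0.0872).

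Coro1a read 82.3, 107.0, 88.9 and 46.0 with vehicle, 95.6, 168.6 and 296.9 with gamendazole, and 51.4, 121.1 and 205.2 with lonidamine. Both drugs exceeded the vehicle range from 12 h on, and the later value was the higher one with each. At 24 h the log2 difference was 1.94 ± 0.48 with gamendazole (limma adjusted p = 0.0477) and 1.41 ± 0.48 with lonidamine (limma adjusted p = 0.147). Coro1a was under the pooled median on all 4 vehicle arrays and was tested only through its signal on treated arrays, and with no filter on low signals the gamendazole value had a limma adjusted p of 0.196. The call was also lost without the 0, 4 or 12 h vehicle array, with limma adjusted p up to 0.101. Arhgdib, a cytoskeletal regulator of blood cells, was 0.73 ± 0.22 and 0.56 ± 0.22 higher at 24 h (limma adjusted p = 0.0898 and 0.204). Plek, a target of protein kinase C in platelets and leukocytes, was 0.39 ± 0.22 and 0.36 ± 0.22 higher (limma adjusted p = 0.312 and 0.404). All 4 cytoskeletal genes were above every vehicle array on both 24 h arrays.

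Of the phagocyte oxidase genes, Rac2, the GTPase that switches the enzyme on, had the greatest distance from vehicle on the gamendazole 24 h array and the least certain baseline. Its vehicle signals were 129.6, 58.3, 12.7 and 48.0, with the 12 h array under the floor, against 110.6, 189.4 and 340.5 with gamendazole and 36.9, 70.1 and 338.2 with lonidamine. Both 24 h arrays were above all vehicle arrays, with log2 differences of 2.49 ± 0.64 and 2.48 ± 0.64 (limma adjusted p = 0.0531 and 0.0666). Cyba, a membrane subunit of the enzyme, ran from 150.7 to 256.5 with vehicle and read 457.8 and 365.0 at 24 h of gamendazole and lonidamine (limma adjusted p = 0.0637 and 0.189). A second Cyba probe set, at most 56.7 on any array, gave -0.10 and -0.15. The other membrane subunit, Cybb, and the cytosolic subunit Ncf1 never reached the pooled median, and their signals were at most 93.6 and 76.6 on any array.

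No signalling gene of leukocytes passed at 24 h, although Lyn, Laptm5 and the untested Vav1 were above every vehicle array on both 24 h arrays. The kinase Lyn read 266.7, 254.7, 248.0 and 149.4 with vehicle and 314.1 and 313.4 at 24 h of gamendazole and lonidamine, and the low 24 h vehicle array widened its spread (limma adjusted p = 0.423 and 0.474). A dimmer Lyn probe set, which never reached the pooled median, gave log2 differences of 0.29 and -0.64. Laptm5, a lysosomal membrane protein of blood cells, was above the vehicle arrays, which ran from 107.0 to 130.1, on 5 of the 6 treated arrays and within them on lonidamine 4 h, at 127.0. Its log2 difference was 0.65 ± 0.27 and 0.40 ± 0.27 at 24 h (limma adjusted p = 0.184 and 0.457). The adaptor Lcp2 differed by 0.01 ± 0.20 and 0.28 ± 0.20, and Vav1 read 102.4 and 78.7 at 24 h against 17.7 to 78.2 with vehicle. Lst1, an immunoregulatory membrane protein, was below the floor on gamendazole 4 h and 24 h, at 18.6 and 22.8, against 58.8 to 139.7 with vehicle (limma adjusted p = 0.369 and 0.16).

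Neither the macrophage growth factor Csf1 nor its receptor Csf1r passed with either drug. Csf1 read 677.7 to 847.9 on the vehicle arrays and 638.9 and 599.9 at 24 h of gamendazole and lonidamine, below all of them (limma adjusted p = 0.393 and 0.271). Csf1r was 318.1 at 24 h of gamendazole and 180.0 at 24 h of lonidamine, with vehicle between 157.1 and 209.1 (limma adjusted p = 0.116 and 0.92). The 3 other Csf1 probe sets gave log2 differences from -0.84 to 1.25 on the 24 h arrays, so the direction of Csf1 depended on the probe set.

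Within a single hybridisation run, the 24 h drug arrays can be set against the 24 h vehicle array by itself, without a test. At least 2-fold above that array, with the brighter array at or above the pooled median, were 12 of the 35 genes with gamendazole and 9 with lonidamine. Over all probe sets 4.0% and 3.17% were that much higher. The 9 were Cd53, Fcgr2b, Cd14, Cd163, Lyz2, Rac2, Lyn, Lcp1 and Coro1a, all of them also among the 12, which had Cd44, Cd68 and Cyba besides. Fcgr2b was 6.30-fold and 8.24-fold higher with gamendazole and lonidamine, Rac2 7.09-fold and 7.05-fold, Coro1a 6.45-fold and 4.46-fold, and Lyz2 2.62-fold and 2.58-fold. For Fcgr2b, Coro1a, Cd14, Cd163, Cd68 and Lyn the 24 h vehicle array was the lowest of the 4 vehicle arrays, so these ratios are higher than those from the vehicle mean.

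At 12 h, also within a run, 7 genes were at least 2-fold above the 12 h vehicle array with gamendazole, against 3.57% of all probe sets, and 1 with lonidamine, against 2.06%. The 7 were Cd53, Cd44, Fcgr2b, Lyz2, Rac2, Lst1 and Lcp1, and the 1 was Fcgr2b. For Cd53, Rac2, Lst1 and Lcp1 the 12 h vehicle array was the lowest of the 4 vehicle arrays. Lst1, at 130.8 with gamendazole, lay within its vehicle range of 58.8 to 139.7. At 4 h none was at least 2-fold higher with either drug, against 1.59% and 1.14% of all probe sets. Itgal was 2.90-fold lower with gamendazole, where 1.35% of probe sets were that much lower. This 4 h vehicle array, at 161.5, was the highest of the 4 for Itgal and lay in another run than gamendazole 4 h. From the vehicle mean the log2 difference of Itgal was -0.90, and the gene was not tested. Pairs of vehicle arrays differed at least 2-fold for 0 to 2 of the 35 genes and for 1.64% to 2.12% of all probe sets.

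Taking the drugs together at an hour, as a group of 2 arrays against the 4 vehicle arrays, was tried after the single arrays had been seen. At 24 h 13 genes of the set were called higher by limma, against 8.42% of tested probe sets, and 1, Aif1, was called lower, against 5.21%. The 13 were Ptprc, Cd53, Cd44, Fcer1g, Fcgr2b, Cd14, Cd163, Lyz2, Cyba, Rac2, Lcp1, Coro1a and Arhgdib. The largest were Rac2 at 2.49 ± 0.56 (limma adjusted p = 0.01), Fcgr2b at 2.44 ± 0.39 (0.00112) and Cd44 at 1.97 ± 0.60 (0.0445) on the log2 scale. Of the 13, 5 (Ptprc, Cd44, Fcgr2b, Rac2 and Coro1a) had passed the signal filter on fewer than 2 vehicle arrays. With 1 vehicle array left out the count of called genes, Aif1 included, lay between 9 and 13, and 5 calls depended on single arrays. Those of Ptprc and Cd44 were lost without the 0, 4 or 12 h vehicle array, those of Aif1 and Arhgdib without the 4, 12 or 24 h one, and that of Fcer1g without the 12 h one (limma adjusted p up to 0.0954). At 12 h, Fcgr2b alone was called, at 1.94 ± 0.39 (limma adjusted p = 0.00943), against 4.57%. With the floor at the pooled 50th percentile it was 0.81 (limma adjusted p = 0.156), and Cd14 was called instead, and with no filter on low signals the limma adjusted p of Fcgr2b was 0.093. At 4 h no gene of the set was called by limma, against 0.553%, and 1 had an unadjusted p under 0.05, against 9.36% of tested probe sets.

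Whether the drugs' effect grew between 4 and 24 h was tested directly. With the vehicle array of each hour as its own baseline, no gene of the set and none of the 17549 probe sets passed (0.0% called by limma), while 8 genes of the set and 7.03% of probe sets had an unadjusted p under 0.05. In the pooled model, added after seeing the data, the drug arrays at 24 h were above those at 4 h for Coro1a by 1.82 ± 0.45 on the log2 scale (limma adjusted p = 0.0413), Fcgr2b by 1.74 ± 0.45 (0.0476), Lcp1 by 1.66 ± 0.24 (0.0024), Lyz2 by 1.30 ± 0.28 (0.02) and Cd163 by 1.16 ± 0.24 (0.0181). Over all tested probe sets 2.83% were called higher. This contrast sets drug arrays against drug arrays and subtracts no vehicle value. A change with the hour or the hybridisation run cannot be told apart from a drug effect in it. Lcp1, Lyz2 and Cd163 were among the 21 genes that passed the signal filter on the vehicle arrays, and Coro1a and Fcgr2b were not. The calls of Fcgr2b and of Coro1a were lost without, respectively, any 1 vehicle array (limma adjusted p up to 0.0651) and the 0, 4 or 12 h one (up to 0.0607).

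Averaged over 4, 12 and 24 h, with the hours as replicates, the set did not pass. With gamendazole 0 of the 30 tested genes were called by limma, where 3.95% of probe sets were, and 11 had an unadjusted p under 0.05, against 20.0% of probe sets. The nearest were Fcgr2b at 2.02 ± 0.48 (limma adjusted p = 0.0501), Lyz2 at 1.05 ± 0.26 (0.0589) and Rac2 at 2.03 ± 0.55 (0.0745) on the log2 scale, n = 3 arrays per treatment. Without the 4 h arrays 7 genes passed (Cd53, Fcer1g, Fcgr2b, Lyz2, Rac2, Lcp1 and Coro1a), as did 9.38% of tested probe sets. Without the gamendazole 4 h array by itself 3 did (Fcgr2b, Lyz2 and Lcp1), against 6.62%. With lonidamine 0 were called by limma, against 0.781%, and 5 had an unadjusted p under 0.05, against 12.7%. Without the 4 h arrays Mrc1 passed, against 3.42%.

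The drugs were given at different doses, so their values stand for these treatments and not for the compounds at 1 dose. Averaged over the hours, 0 genes of the set and 0.0% of probe sets differed between them by limma, and 0 genes of the set had an unadjusted p under 0.05, against 4.42% of probe sets. Hour by hour, in contrasts added after seeing the data, Lyz2 at 12 h was 1.26 ± 0.12 higher on the log2 scale with gamendazole (limma adjusted p = 0.026), where 0.217% of tested probe sets were called. With any 1 vehicle array left out this difference had a limma adjusted p of 0.0769 to 0.14. Cd53, Cd44, Fcgr2b and Lcp1 at 12 h were 1.18, 2.26, 1.38 and 0.73 higher with gamendazole and did not pass (limma adjusted p from 0.342 to 0.425). At 24 h no gene of the set and 0.0% of probe sets differed, and 2, Mrc1 and Csf1r, had an unadjusted p under 0.05, against 6.78%. The 95% interval of the 24 h difference, gamendazole minus lonidamine, was -0.27 to 0.31 for Lyz2, -1.46 to 0.69 for Fcgr2b, -0.84 to 0.65 for Cd163 and -0.15 to 1.0 for Lcp1.

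**Figure D4:**
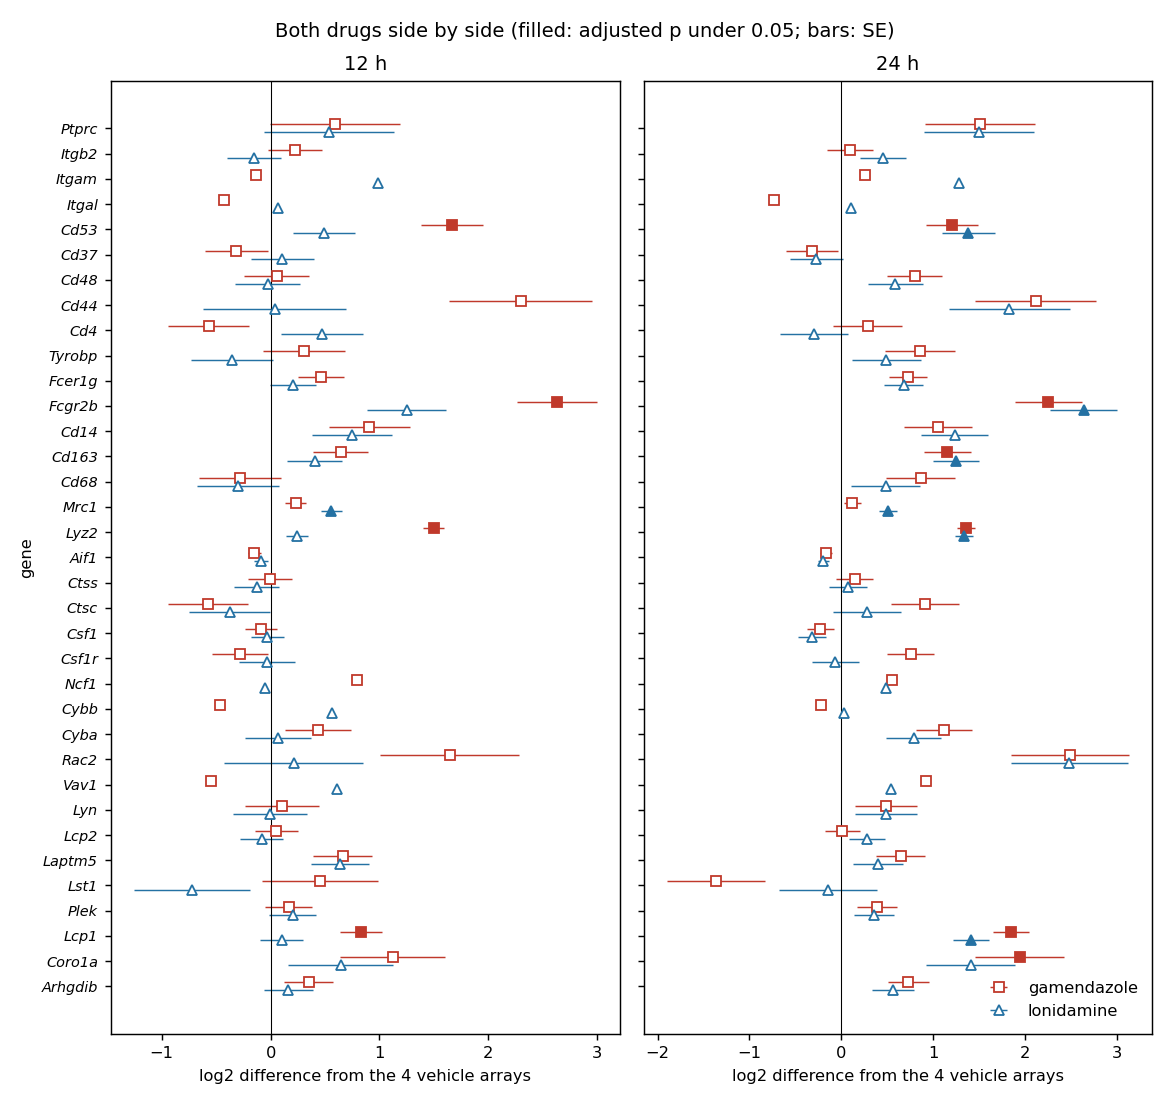
Log2 difference of each gene from the 4 vehicle arrays at 12 h and at 24 h for gamendazole (squares) and lonidamine (triangles), with bars for the SE and filled symbols for a limma adjusted p under 0.05; untested genes have no bar. At 12 h Lyz2, Cd53, Cd44 and Fcgr2b lie further right with gamendazole, and at 24 h the symbols of both drugs lie close together for most genes.

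Other lists of markers were read beside the set. Of 34 further macrophage and monocyte genes 28 had a probe set and 15 were tested. The median log2 difference of the 28 at 24 h was 0.40 with gamendazole, with 23 above 0. With lonidamine it was 0.01, with 15 above 0. At 24 h of each drug 2 were called higher, against 5.69% of all tested probe sets with gamendazole and 5.03% with lonidamine. These were C1qa, a chain of complement component C1q made by macrophages, at 1.29 ± 0.23 and 1.01 ± 0.23 on the log2 scale with gamendazole and lonidamine (limma adjusted p = 0.015 and 0.0421), and Fgr, a myeloid kinase whose vehicle signals all lay under the floor. With the drugs together at 24 h 6 of the 15 were called higher, against 8.42% of all tested probe sets. They added the other C1q chains C1qb and C1qc, the inhibitory receptor Sirpa and the transcription factor Cebpb. Fgr and Sirpa had reached the pooled median on fewer than 2 vehicle arrays, so they were tested only because of signal on treated arrays. C1qb read at most 250.3 with vehicle and 304.4 and 400.2 at 24 h of gamendazole and lonidamine (limma adjusted p = 0.0252 for both drugs together), and Sirpa at most 172.8 with vehicle and 238.2 and 273.3 (limma adjusted p = 0.031). Adgre1, the F4/80 antigen, read 822.9 to 1000.5 with vehicle and 818.7 and 1093.1 at 24 h of gamendazole and lonidamine (limma adjusted p = 0.488 and 0.353). The chemokine receptor Cx3cr1 read 243.6 to 303.3 with vehicle and 254.5 and 240.4 at 24 h, and Ccr2, the receptor of Ccl2 on blood monocytes, stayed at or below 48.4 on all arrays and was not tested.

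Among chemokines that draw leukocytes, Ccl2 rose with both drugs at 4 h and Ccl7 with gamendazole. Ccl2 read 52.2, 5.4, 20.9 and 5.7 on the vehicle arrays, 381.2, 2656.4 and 1438.3 with gamendazole, and 202.8, 1435.3 and 2119.9 with lonidamine. It passed on all 6 treated arrays (limma adjusted p at most 0.0417), including those at 4 h. Ccl7 read at most 11.3 with vehicle, 143.7, 805.5 and 158.9 at 4, 12 and 24 h of gamendazole, and 39.8, 594.9 and 680.7 with lonidamine. It passed on all of these arrays (limma adjusted p at most 0.0295) but lonidamine 4 h (0.948). Cx3cl1 read at most 123.7 with vehicle, 407.2, 570.4 and 538.9 with gamendazole, and 162.4, 559.6 and 554.4 with lonidamine. It passed at 12 and 24 h of gamendazole and at 24 h of lonidamine (limma adjusted p at most 0.0241), and at 4 h of gamendazole and 12 h of lonidamine its limma adjusted p was 0.109 and 0.0596. Ccl2 and Ccl7 stayed under the pooled median on every vehicle array, and Cx3cl1 reached it only on the 4 h one. These chemokines were thus tested only because of signal on treated arrays, and every Ccl7 vehicle value was raised to the floor. Of 9 attractants and myeloid growth factors 5 were tested. At 24 h 3 were higher with each drug, against 5.69% of tested probe sets with gamendazole and 5.03% with lonidamine. Il34, a second ligand of Csf1r, was called lower at 24 h of lonidamine by 0.46 (limma adjusted p = 0.0337), against 1.98%. At 12 h of gamendazole Il34 and the chemokine Cxcl12 were called lower (limma adjusted p = 0.0496 and 0.015).

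Markers of other blood cells were mostly dim. Of 14 matched T, B and NK cell genes 2 were tested and none was called; the T cell receptor chain genes Cd3e, Cd3d and Cd3g read at most 121.9 on any array. None of 5 mast cell genes and 1 of 3 platelet genes was tested, and none was called. Among neutrophil genes, 3 of 8 were tested. S100a9 read at most 53.7 with vehicle, 77.6, 370.9 and 179.1 at 4, 12 and 24 h of gamendazole, and 35.9, 143.4 and 123.0 with lonidamine. It rose at 12 and 24 h of gamendazole (limma adjusted p = 0.0051 and 0.0221), and with lonidamine its limma adjusted p was 0.112 and 0.0734. S100a9 stayed under the pooled median on every vehicle array and was tested only through its signal on treated arrays. Lcn2, which epithelia also make, read 232.5 to 858.8 with vehicle and 1679.3 and 4428.7 at 24 h (limma adjusted p = 0.0687 and 0.0175). With the drugs together at 24 h S100a9 and Lcn2 were called higher (limma adjusted p = 0.0196 and 0.000883). Mmp9, the remaining tested neutrophil gene, did not rise and was not called at 24 h. It read 58.9 to 204.8 with vehicle, the highest on the 24 h vehicle array. Both 24 h drug arrays lay within that range and below the 24 h vehicle array, with lonidamine at 104.7. S100a8, the partner of S100a9, was not tested and read 2.1 to 29.2 with vehicle, 46.1, 123.0 and 74.5 with gamendazole, and 34.6 and 34.3 at 4 and 24 h of lonidamine with its highest value between them at 12 h, and the neutrophil chemokine receptor Cxcr2 stayed at or below 87.8. The other untested neutrophil genes went different ways at 24 h. Mmp8 was under the floor with both drugs, below its vehicle range of 22.4 to 50.1. Csf3r read 67.5 and 54.8 with gamendazole and lonidamine, above its vehicle range of 17.1 to 40.5. Camp was under the floor on all arrays. The part of these blood cells in the values of the leukocyte set was not tested.

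Of the 3 matched red cell genes, Hbb rose and Alas2 fell at 24 h of gamendazole. Hbb, which encodes beta globin, read 1986.3 to 3193.9 with vehicle, 3730.1, 5548.7 and 8047.4 at 4, 12 and 24 h of gamendazole, and 3894.0, 3076.2 and 4236.0 with lonidamine. Its log2 difference at 24 h was 1.55 ± 0.23 with gamendazole (limma adjusted p = 0.00834) and 0.62 ± 0.23 with lonidamine (limma adjusted p = 0.18). Alas2, the heme synthesis enzyme of red cell precursors, read 900.6 to 1003.2 with vehicle, 616.1 at 24 h of gamendazole (limma adjusted p = 0.0186) and 969.9 at 24 h of lonidamine (limma adjusted p = 0.872). Slc4a1, the anion exchanger of red cells, read 93.6 to 194.7 with vehicle and 112.5 and 121.4 at 24 h (limma adjusted p = 0.624 and 0.77). The summed signal of the 3 genes, most of it from Hbb, was 3144.4 to 4188.1 with vehicle, 8776.0 at 24 h of gamendazole and 5327.3 at 24 h of lonidamine. How far blood in the tissue contributes to the leukocyte values was not tested.

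The makeup of testis RNA also moved, in part as early as 4 h. Summed over the 35 genes the signal was 16128.2 to 16631.6 with vehicle, 20735.0 at 24 h of gamendazole and 20496.2 at 24 h of lonidamine. Aif1 was the largest part of these sums, at 7723.3 to 8340.3 with vehicle and 7232.8 and 7104.8 at 24 h. Mrc1 and Lyz2 were the next brightest, so the sums mostly follow a few genes. Over 8 germ cell genes the sum was 218809.6 to 227803.5 with vehicle and 189349.9 and 193388.8 at 24 h of gamendazole and lonidamine. At 24 h each drug had 4 of them called lower, against 4.09% and 1.98% of all tested probe sets. At 4 h this sum was already 210867.3 and 210797.6, with no germ cell gene called. Over 6 Leydig cell genes the sum was 8178.0 to 10559.9 with vehicle, 15151.1 and 8538.6 at 4 h, and 5045.8 and 6130.0 at 24 h. Of the Leydig cell genes 4 were called lower at 24 h with each drug, among them Cyp17a1 of androgen synthesis with log2 differences of -5.08 or further with gamendazole, where it was under the floor, and -4.18 with lonidamine, and Star, which carries cholesterol into mitochondria, was called higher. None of 4 tested Sertoli cell genes was called on a single treated array. For both drugs at 24 h against 4 h, 1 was called lower, where 196 of 17549 tested probe sets were. On the 24 h arrays, of 4 peritubular genes Des rose with both drugs and Acta2 with lonidamine. Of 3 tested endothelial genes Vwf rose with lonidamine and Tek was lower with gamendazole. The part of these shifts in the leukocyte values was not tested.

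**Figure D5:**
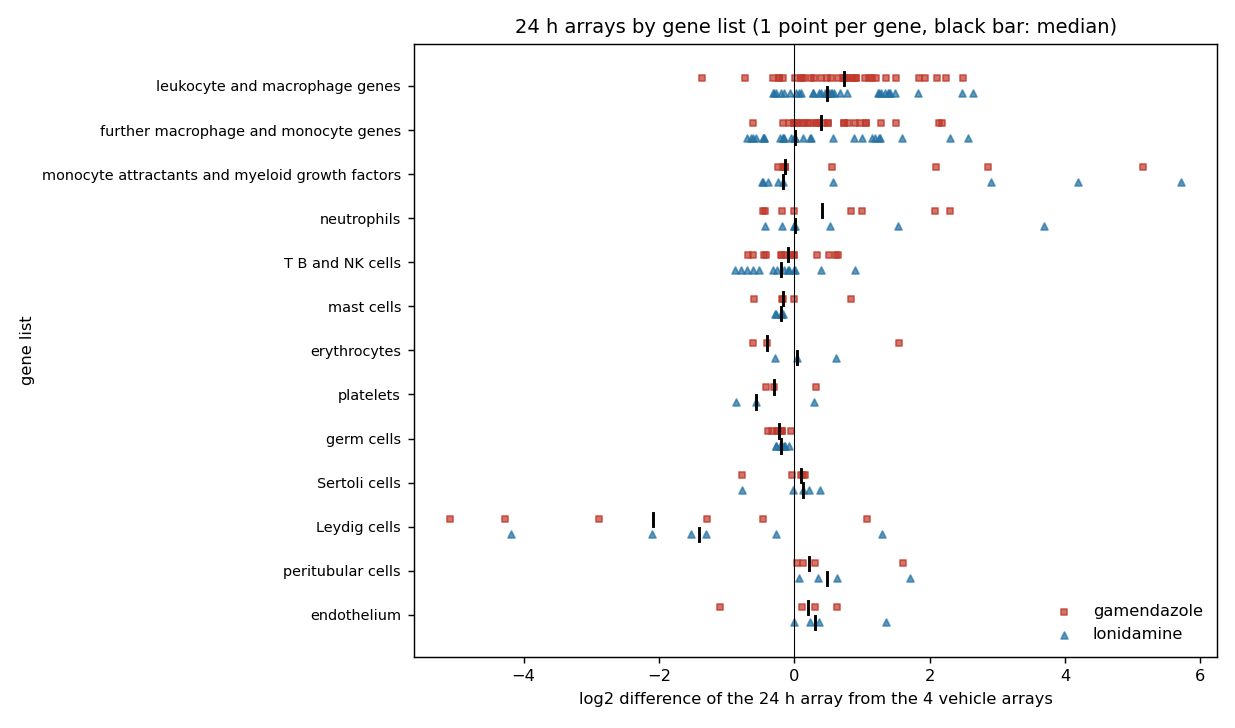
Log2 difference of the 24 h arrays from the 4 vehicle arrays by gene list, with 1 point per matched gene, squares for gamendazole, triangles for lonidamine and black bars for medians. The leukocyte and macrophage genes have medians of 0.73 and 0.49, and the further macrophage and monocyte genes 0.40 and 0.01. The medians of the T, B and NK cell genes, of which 2 of 14 were tested, are -0.10 and -0.20. Those of the Leydig cell genes are -2.09 and -1.41.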

How the data were processed

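Testis RNA was measured on Affymetrix Rat230_2 arrays, with biotin labelling by Affymetrix's single-cycle method from 6.2 ug of total RNA, per the labels' protocols. The deposited values are signal intensity per probe set, which the authors made with GCOS 1.1, per the submitters' processing notes. Each array's deposited values have a mean of 500.2 once 2% is trimmed at each end. No detection calls were used, and the probe-level algorithm is not given in the sources used here. Of 31099 probe sets, 57 controls were left out. The platform annotation, which can be old, gave 1 symbol for 20826 probe sets, several for 436 and none for 9780.

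From these values, log2 intensity above the floor was fitted with limma 3.58.1 in R 4.3.3 (lmFit, eBayes with a variance trend). One fit held each treated array against the 4 vehicle arrays (3 residual degrees of freedom). A second held treatment and hour over the 9 arrays of 4, 12 and 24 h (4 residual degrees of freedom), and another the drug effect by hour (3). Stand-ins for replicates were vehicle arrays, hours or drugs, so p-values reflect only how these arrays vary, which may be technical, and precision is limited by there being 10 arrays. The fits were tested on simulated data. The genes and lists were chosen with earlier results of these data known, every gene of the set is described, and from the other lists defining markers and called genes are named. Alternatives were other floors, filters, normalizations, variance models, probe set rules and fits without single arrays.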

Additional observations from a re-analysis of the deposited data

Results flagged for a closer look

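For 3 of the 35 genes, 1 vehicle array stood apart from the other 3, where chance gives such a gap in about 1 of 20 groups. Some such gaps are thus to be looked for by chance among 35 genes. The share of the 4-array range taken by the gap was 0.937 for Tyrobp, with vehicle 0 h low at 89.3, and 0.875 for Lyn, with vehicle 24 h low at 149.4. It was 1.0 for Ncf1, with vehicle 24 h at 42.6 and the other 3 under the floor. Because those 3 were tied at the floor, the share for Ncf1 was fixed in advance, and the rate of 1 in 20 does not apply to it. Tyrobp and Lyn were not called in any comparison of the report, and Ncf1 was not tested in them. With no filter on low signals Ncf1 was called at 4 and 12 h of gamendazole, and with the floor at the pooled 50th percentile Tyrobp was called for both drugs at 24 h against 4 h.

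Lyz2 at 12 h differed between the drugs by 1.26 on the log2 scale in a test of the difference itself. For 5 genes the drug arrays at 24 h differed from those at 4 h, by 1.82 for Coro1a, 1.74 for Fcgr2b, 1.66 for Lcp1, 1.3 for Lyz2 and 1.16 for Cd163, in the pooled model added after seeing the data. That contrast subtracts no vehicle value, so hour and hybridisation run cannot be told apart from a drug effect in it. The change of the drug effect from 4 to 24 h, against the vehicle array of each hour, gave no call.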

How the results depend on the processing

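No paired analysis was possible because the labels give no replicate numbers; the averaged comparisons had the hour as a term. Counts of called genes of the set are given here for the settings that moved them by more than 1.5 times, and for single called genes 192 alternatives kept the call and 112 lost it, with no change of direction. The floor at the pooled 50th percentile gave 1 at gamendazole 4 h, 2 at lonidamine 12 h, 8 at gamendazole 12 h, 11 at lonidamine 24 h, 13 at gamendazole 24 h, 5 and 3 for the difference between drugs at 12 and 24 h, and 8 for both drugs at 24 h against 4 h. On these 5 arrays, in this order, 307, 460, 1605, 1437 and 1994 of 17549 tested probe sets were called at that floor. For the difference between drugs 597 and 487 probe sets were called, where the main fit called 38 and 0, so calls rose over all probe sets too. Without the filter on low intensities, where more probe sets share the adjustment, counts were 1 at gamendazole 4 h, 0 at lonidamine 12 h, 2 at each 24 h array, and, for both drugs together, 0 at 12 h, 4 at 24 h and 0 for 24 h against 4 h. Of all 31042 probe sets, 569 were then called at gamendazole 4 h, 587 at lonidamine 12 h, 1627 at gamendazole 24 h and 846 at lonidamine 24 h. For both drugs together 346 were called at 12 h and 1189 at 24 h. Quantile normalization gave 1 for gamendazole averaged over the hours, 3 at gamendazole 24 h, 9 for both drugs at 24 h and 3 for 24 h against 4 h. In the first 3 of these fits 601, 1336 and 1915 tested probe sets were called. Without a variance trend, counts were 0 at lonidamine 12 h, 0 for the difference at 12 h, 8 for both drugs at 24 h and 2 for 24 h against 4 h. Tested probe sets called were then 96 at lonidamine 12 h and 13 for the difference at 12 h. For both drugs at 24 h without a variance trend, and for 24 h against 4 h under any of these settings, no such number is given here. The cause of these shifts was otherwise not tested.

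With hours left out, the averaged counts ran from 0 to 7 for gamendazole and from 0 to 1 for lonidamine, and without the gamendazole 4 h array the former was 3. With 1 vehicle array left out, counts were 0 at lonidamine 12 h, 3 to 5 at lonidamine 24 h and at gamendazole 24 h, 0 for the difference at 12 h, 9 to 13 for both drugs at 24 h and 3 to 4 for 24 h against 4 h. Tested probe sets called in those fits were 616 to 940 at lonidamine 24 h and 818 to 1310 at gamendazole 24 h. For both drugs at 24 h, and for 24 h against 4 h, they are not given here, so those counts stand without a background. Each hour by itself in place of the average gave 1 for the difference between drugs at 12 h. Drug arrays at 24 h against those at 4 h, with no vehicle value subtracted, gave 5. The drug effect against the vehicle array of each hour gave 0. At 1.5-fold in place of 2-fold, the genes above the vehicle array of the hour were 3, 11 and 19 with gamendazole at 4, 12 and 24 h. With lonidamine they were 4 and 16 at 12 and 24 h, and 2 were lower at lonidamine 4 h. The share of all probe sets past 1.5-fold was not counted, so these counts have no background beside them. For the 2-fold counts, gamendazole 4 h gave 1 higher under quantile normalization or the mean of all probe sets, and 0 lower at the higher floor; lonidamine 12 h gave 0 higher at that floor; and gamendazole 24 h gave 1 lower with the mean of all probe sets.

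The calls of Lyz2 and Lcp1 at 24 h held under all 8 alternatives with each drug, as did those of Lyz2 and Fcgr2b at 12 h of gamendazole. Genes near the floor, such as Cd44, Rac2 and Ptprc, limit what signal over background can show.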
